A study of Gallus gallus with 6 samples.

Results

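The beta- and gamma-crystallins of the chick lens were followed as a gene family of 8 members, CRYBA1, CRYBA2, CRYBA4, CRYBB1, CRYBB2, CRYBB3, CRYGN and CRYGS, found by symbol among the 9105 gene rows tested. RNA came from lens fiber cells, the elongated cells that fill the lens, of White Leghorn chick embryos at embryonic day 13. Fiber cells of lenses kept as whole organs for 8 h in 1% O2 (3 pools) were compared with those of untreated lenses at 0 h (3 pools), each pool holding 10 to 15 lenses. Lenses showing damage or opacity had been discarded, per the labels' protocols. Lenses cultured for 8 h at normal oxygen are not among the libraries used, so low oxygen and time in culture cannot be told apart in any value given here.

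Beta- and gamma-crystallins are soluble structural proteins built from a repeated Greek key fold. Packed at very high concentration in fiber cells, which later lose their nuclei and organelles, they give the lens its refractive power and must last for life. Acidic beta-crystallins (the CRYBA genes) and basic beta-crystallins (the CRYBB genes) assemble with each other into dimers and larger complexes, while gamma-crystallins (the CRYG genes) stay monomeric. In birds the most abundant crystallin is of another kind, delta-crystallin, a protein derived from the urea cycle enzyme argininosuccinate lyase.

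Levels are normalized counts, that is, read counts divided by a size factor for each library and rounded. They are not divided by transcript length, so levels of different genes are not ranked. The size factors recovered from the pattern that rounding leaves put 29.43 M to 32.62 M reads on the listed genes in the hypoxia pools and 23.53 M to 29.11 M in the untreated pools. Delta-crystallin ASL1 alone took 48.2% to 52.4% of the hypoxia totals and 50.6% to 53.1% of the untreated totals. Among 6 fiber cell markers, 5 had a row, and their summed level was 491300 to 604685 in hypoxia pools and 734083 to 900055 in untreated pools. LIM2 was not analysed here. Markers of other cells with a row had these sums: 5014 to 6540 in hypoxia and 6313 to 9989 in untreated pools for lens epithelium (4 of 5 markers), 198 to 409 and 275 to 368 for red blood cells (2 of 6), 22 to 65 and 156 to 179 for endothelium (1 of 4), 285 to 383 and 137 to 209 for retina and pigment epithelium (2 of 6), 118 to 165 and 55 to 72 for mesenchyme (1 of 5), and 63 to 100 and 81 to 154 for macrophages (1 of 3). GJA1 made up most of the epithelial sum (mean 4930 in hypoxia and 6421 in untreated pools). The sums are of different genes and numbers of markers, so they do not show how scarce a cell type was. Of the epithelial markers PDGFRA fell and TFAP2A rose. Of the other cells' markers PECAM1 (endothelium) fell, while MITF (retina and pigment epithelium) and COL3A1 (mesenchyme) rose. The rest of these markers did not pass the limma test described below. The part of these cells in the crystallin values was not tested.

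All 8 members had a lower mean after 8 h in 1% O2, and 7 of them fell by the test (limma, Benjamini-Hochberg adjusted p under 0.05), while 0 were called higher, also at an unadjusted p under 0.05. Of all rows tested 25.7% were called lower and 29.4% higher. In 7 members every hypoxia pool lay below every untreated pool, as did 30.1% of all rows, and in 0 members every hypoxia pool lay above, as did 32.6% of all rows. The median log2 fold change, 8 h in 1% O2 over untreated, was -0.50 over the members and -0.01 over the 9105 rows tested. Abundant transcripts in general were lower: of 147 rows averaging 10000 or more, a level chosen after the values were seen, 60.5% were called lower and 5.44% higher, with a median of -0.33. The members other than CRYGS belong to those 147 rows, so beside these rows the share called lower stands less far apart. The 147 rows also hold other crystallins and fiber markers, and they were not matched to the members in level. In these bulk pools, fewer cells of a type and less RNA per cell cannot be told apart.

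**Figure D1:**
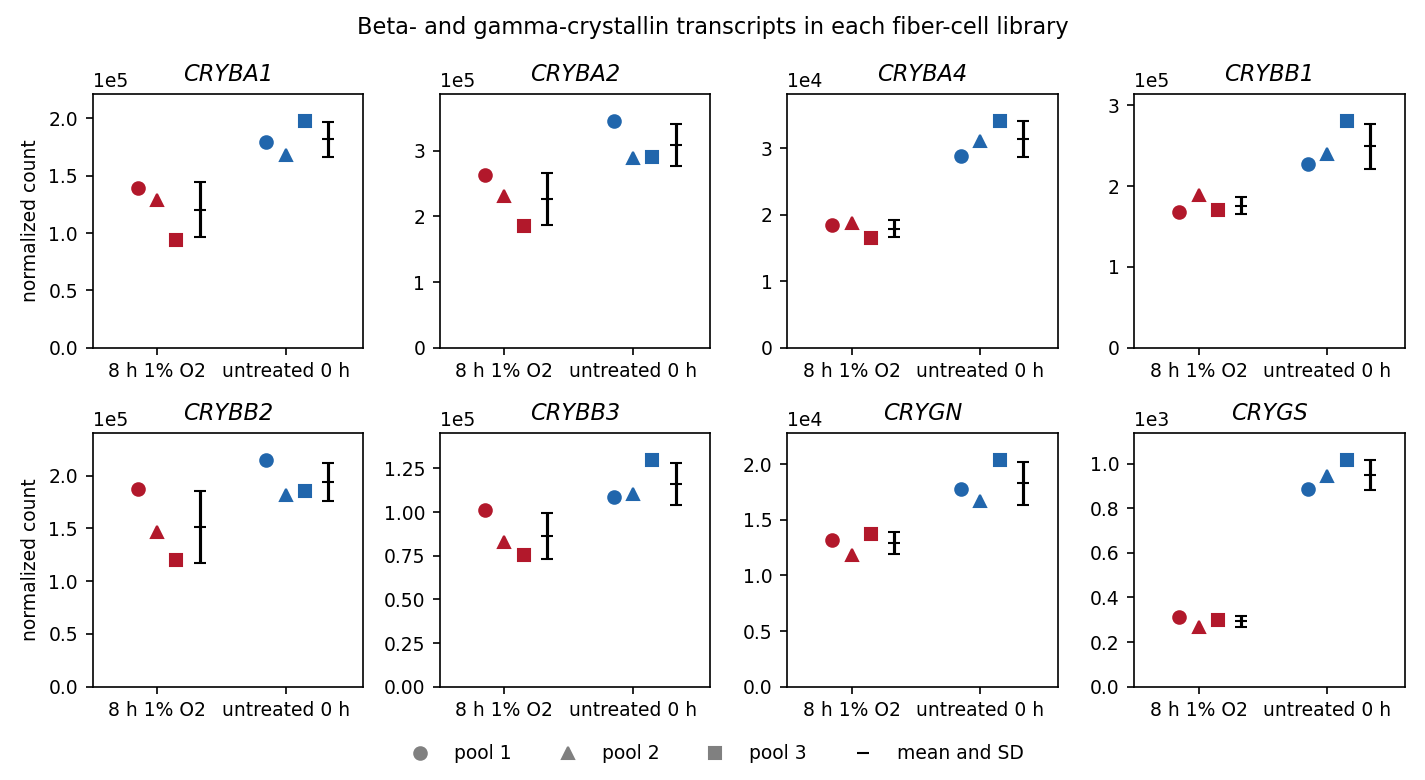
Normalized count (vertical axis, from 0, a scale of its own for each gene) of the 8 members in each library, with 8 h in 1% O2 left and untreated lenses right; symbols are pools 1 to 3, and the dash with its bar is the mean and SD (n = 3). In 7 members every hypoxia pool lies below every untreated pool, and in CRYBB2 hypoxia pool 1 (187901) lies above untreated pools 2 and 3.

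Among the acidic beta-crystallins, CRYBA4 moved furthest. It stood at 18471, 18801 and 16425 normalized counts in hypoxia pools 1 to 3, against 28725, 31057 and 34099 in untreated pools 1 to 3. The groups lay far apart, and the hypoxia pools differed from each other by a factor of only 1.145 from highest to lowest. The mean was 17899 ± 1287 in hypoxia and 31294 ± 2695 in untreated lenses (SD, n = 3 each), a log2 fold change of -0.80 ± 0.10 (SE, limma adjusted p = 7.15e-05), or 57.2% of the untreated level. In the RefSeq annotation of assembly GRCg7b, which is not the submitters' build, CRYBA4 lies within the span of CRYBB1, so reads of the pair could have been shared in counting. That was not tested, and the strands of the pair were not compared.

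CRYBA1, which yields a pair of polypeptides from alternative start codons, had 139110, 128497 and 93606 normalized counts in the hypoxia pools, against 179402, 167940 and 198025 in the untreated pools. The groups did not overlap, but hypoxia pool 3 lay well under the other two. Its log2 fold change was -0.61 ± 0.15 (limma adjusted p = 0.00491), leaving 65.5% of the untreated level. CRYBA2 had 263251, 230772 and 185432 normalized counts in the hypoxia pools, against 345829, 288953 and 290668 in the untreated pools. Here too hypoxia pool 3 was lowest, and untreated pool 1 stood above its group. CRYBA2 fell by 0.46 ± 0.14 on the log2 scale (limma adjusted p = 0.0166), a call that ended without untreated pool 1 (-0.37, adjusted p = 0.0739, with 0.00166 to 0.221 over its alternatives).

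Among the basic beta-crystallins, CRYBB1 had the most even hypoxia pools. It had 168430, 188496 and 170547 normalized counts in the hypoxia pools, against 227836, 239069 and 280751 in the untreated pools. No hypoxia pool came near the untreated group. The log2 fold change was -0.50 ± 0.11 (limma adjusted p = 0.00346), 70.8% of the untreated level. CRYBB3 had 100997, 83010 and 75407 normalized counts in the hypoxia pools, against 108451, 110258 and 130012 in the untreated pools. Its groups were close at their edges, hypoxia pool 1 lying just under untreated pool 1. It fell by 0.43 ± 0.13 on the log2 scale (limma adjusted p = 0.0144), and the call ended without untreated pool 3 (-0.35, adjusted p = 0.0786, with 0.00306 to 0.173 over its alternatives).

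CRYBB2, the main basic beta-crystallin of mammalian lenses, was the member that did not pass. It had 187901, 147067 and 119721 normalized counts in the hypoxia pools, against 215202, 181326 and 185662 in the untreated pools. The groups overlapped through hypoxia pool 1, and the spread in hypoxia was the widest of the family, with a coefficient of variation of 22.6% in hypoxia and 9.5% in untreated pools. The log2 fold change was -0.38 ± 0.16 (95% interval -0.72 to -0.03, limma adjusted p = 0.0606). Without hypoxia pool 1 it was -0.54 and passed (adjusted p = 0.0052), while without hypoxia pool 3 it was -0.22 (adjusted p = 0.181). In the authors' deposited table all 8 members have an adjusted p under 0.05, CRYBB2 with 0.0431 and a shrunken log2 fold change of -0.34. By the authors' deposited table, 22.4% of the rows tested here were lower.

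Both gamma-crystallins fell, by very different amounts. CRYGS, encoding gamma-S, which in mammals marks the later-formed cortical fibers, had 313, 267 and 300 normalized counts in the hypoxia pools, against 884, 944 and 1017 in the untreated pools. The groups were separated by a gap larger than either group's range. The mean was 293 ± 23.7 in hypoxia and 948 ± 66.6 in untreated lenses (SD, n = 3 each), a log2 fold change of -1.69 ± 0.10 (limma adjusted p = 2.66e-07), leaving 31.0% of the untreated level. Of the 9105 rows, 119 had a lower log2 fold change. These values rest on 328 to 363 recovered reads per hypoxia pool and 750 to 885 per untreated pool, so counting alone gives an error of 5.25% to 5.52% in hypoxia and 3.36% to 3.65% in untreated pools, and the interval of the log2 fold change was -1.92 to -1.46 (95%).

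CRYGN, encoding gamma-N, which shares features of beta- and gamma-crystallins, had 13181, 11854 and 13722 normalized counts in the hypoxia pools, against 17742, 16670 and 20407 in the untreated pools. The groups did not overlap, with a coefficient of variation of 7.4% in hypoxia and 10.5% in untreated pools. Its log2 fold change was -0.50 ± 0.11 (limma adjusted p = 0.00227), 70.8% of the untreated level, which lies among those of the beta-crystallins and far from that of CRYGS.

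The direction held under every scaling tried, but the size of the fall did not. When libraries were scaled to equal totals, the median of all rows shifted by 0.216 on the log2 scale, the members' median became -0.28, and 4 members were called lower (CRYBA4, CRYBB1, CRYGN and CRYGS), with 10.7% of all rows lower and 40.1% higher. CRYGS was then at -1.47 and CRYBA4 at -0.59, while CRYBA1, CRYBA2 and CRYBB3 no longer passed (-0.39, -0.24 and -0.22, with adjusted p = 0.054, 0.221 and 0.173). Rescaling shifts the log2 fold changes of all rows by nearly the same amount. The members' distance from the median of all rows, drawn in the plot of both scalings, therefore could not differ between them. It is no further evidence for the fall. Library totals are not independent of the crystallins, since ASL1 alone took 48.2% to 53.1% of them.

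**Figure D2:**
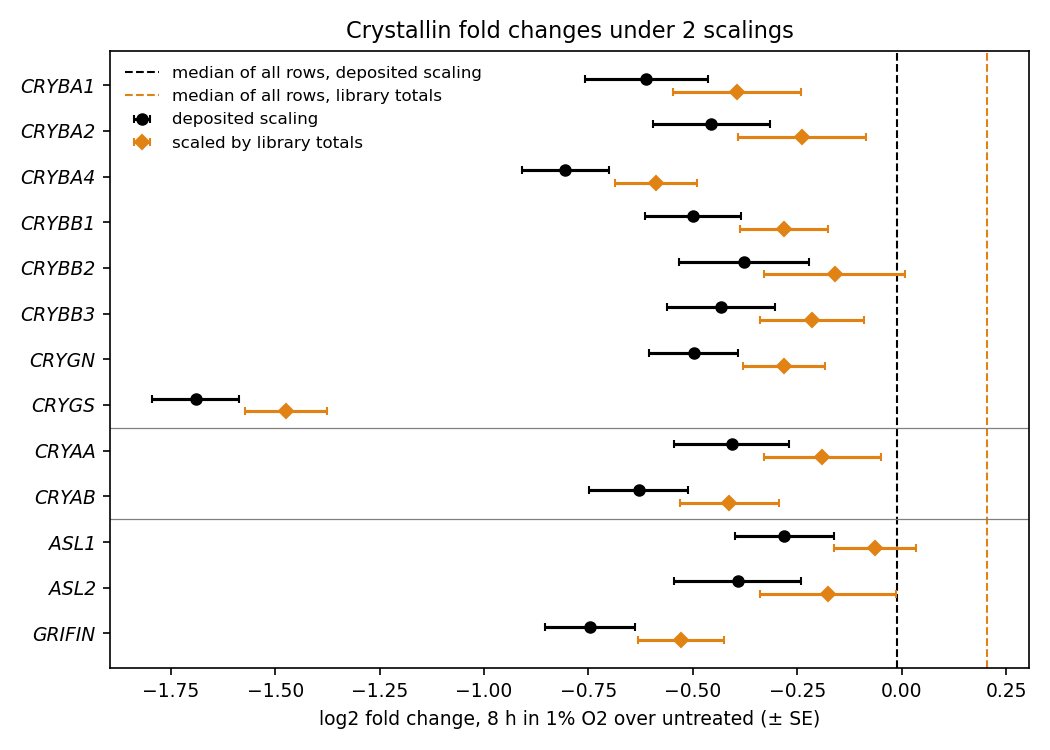
Log2 fold change of 8 h in 1% O2 over untreated (horizontal axis, ± SE) of the 8 members (top), the alpha-crystallins CRYAA and CRYAB (middle) and the delta-crystallins with GRIFIN (bottom), as deposited (circles) and scaled to equal library totals (diamonds); dashed lines are the medians of all rows. All points lie left of the median line of their scaling, with CRYGS at -1.69 and -1.47 farthest left.

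Ratios between members within a library do not depend on how libraries are scaled. The log2 ratio of CRYGN to CRYGS was 5.40, 5.47 and 5.52 in the hypoxia pools, against 4.33, 4.14 and 4.33 in the untreated pools, a difference of 1.196 ± 0.07 (SE). All 7 ratios that involve CRYGS separated the groups without overlap, with differences of 0.89 to 1.32 in size, each in the direction of a larger fall of CRYGS. CRYBA4 came next: its log2 ratio to CRYBB1 was -3.19, -3.33 and -3.38 in the hypoxia pools, against -2.99, -2.94 and -3.04 in the untreated pools. Its ratios to CRYBB3 and CRYGN also did not overlap, which made 3 of the 21 ratios without CRYGS. The ratios of CRYBA4 to CRYBA1, CRYBA2 and CRYBB2 did overlap. That to CRYBB2 had its largest difference apart from CRYGS, -0.43 ± 0.20 (SE). Of the 15 ratios among the remaining 6 members, none separated the groups, and their differences were 0.0016 to 0.23 in size. By two-sided exact permutation tests over the 6 libraries, 28 pairs gave no adjusted p under 0.28. The smallest p that 3 against 3 libraries allow is 0.1, so that test could not have passed. The 7 ratios with CRYGS share that gene and are not separate findings. No like count over ratios of other rows was made, so how often such ratios separate is not known.

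**Figure D3:**
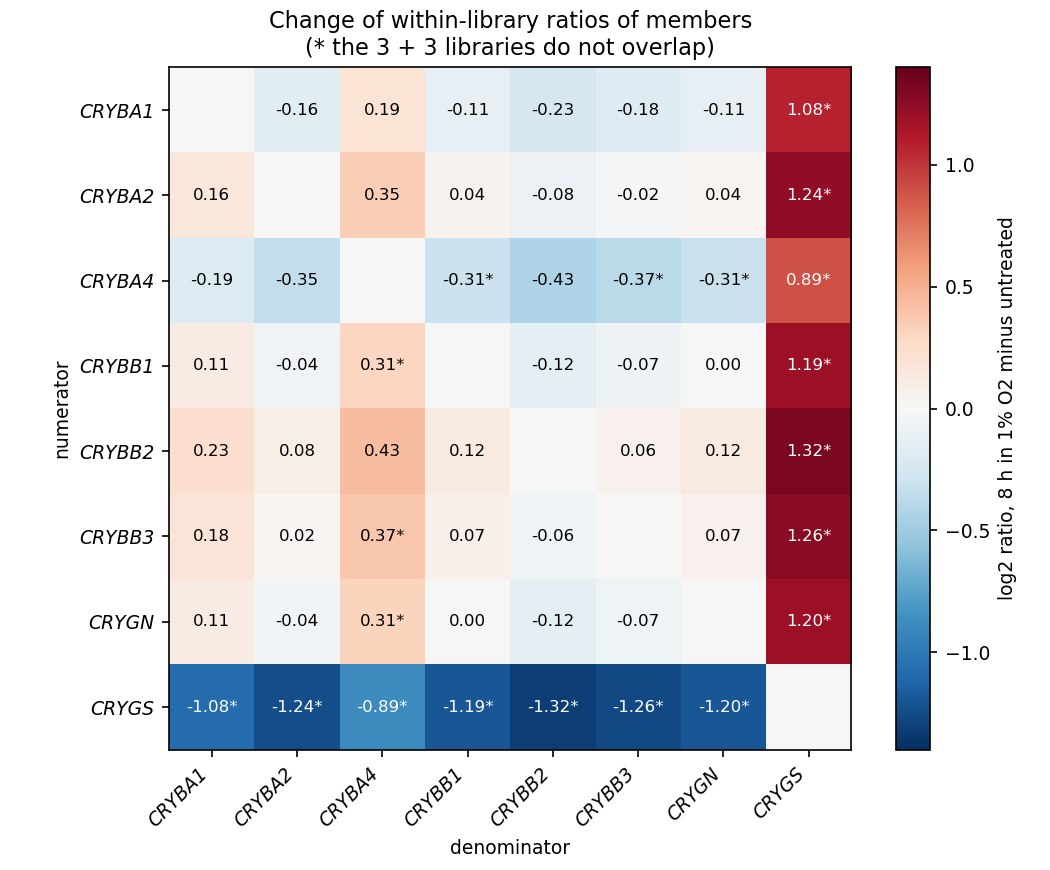
Difference in the within-library log2 ratio, 8 h in 1% O2 minus untreated, for each member (rows, numerator) over each other member (columns, denominator); red is a ratio higher after 8 h in 1% O2, blue lower, and a star marks ratios whose 3 hypoxia and 3 untreated values do not overlap. The CRYGS row is blue throughout (0.89 to 1.32 in size), and CRYBA4 has 3 further starred ratios, to CRYBB1, CRYBB3 and CRYGN.

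Shares of the family's reads separated the groups for 3 members, CRYGS, CRYBA4 and CRYBA1. The members' summed normalized counts were 891654, 808764 and 675160 in the hypoxia pools, against 1124071, 1036217 and 1140641 in the untreated pools. ASL1 alone took 48.2% to 53.1% of the library total. In the members' share of that total, however, the groups overlapped. That share was 3.386%, 3.142% and 2.51% in the hypoxia pools, against 3.858%, 3.335% and 3.608% in the untreated pools. The members' share of the 13 crystallins overlapped as well (5.929%, 5.528% and 4.275%, against 6.405%, 5.428% and 5.836%). Of the members' sum CRYGS held 0.038% ± 0.006 in hypoxia and 0.086% ± 0.007 in untreated lenses (SD, n = 3 each). CRYBA4 held 2.28% ± 0.185 in hypoxia and 2.85% ± 0.253 in untreated lenses, and CRYBA1 held 15.1% ± 1.1 and 16.5% ± 0.75. For CRYBA1 the gap was narrow, from 15.89% in hypoxia pool 2 to 15.96% in untreated pool 1. The other members' shares overlapped between the groups, among them CRYBA2 at 28.5% ± 1.03 in hypoxia and 28.0% ± 2.6 in untreated lenses, and CRYGN at 1.66% in both. The shares are of reads and are not corrected for transcript length. Shares of a common sum depend on each other, and no like count over all rows was made.

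The pools of a group did not vary alike for all members. Hypoxia pool 3 was the lowest hypoxia pool for 5 members (CRYBA1, CRYBA2, CRYBA4, CRYBB2 and CRYBB3), with the highest hypoxia pool at 1.34 to 1.57 times its value in all of these but CRYBA4. CRYBB1 was lowest in hypoxia pool 1, and CRYGN and CRYGS in hypoxia pool 2. The alpha-crystallins CRYAA and CRYAB were also lowest in hypoxia pool 3, while ASL1 was highest there. CRYBA2 and CRYBB2 varied together: their log2 ratio was 0.49, 0.65 and 0.63 in the hypoxia pools and 0.68, 0.67 and 0.65 in the untreated pools, and both were highest in pool 1 of each group. That pair was singled out of 28 after the values were seen, its ratio difference having the smallest SE (0.05). Without hypoxia pool 3 the members' median log2 fold change was -0.46, and 7 were still called lower.

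The other crystallins give the family's neighbours. CRYAB, a small heat shock protein, fell by 0.63 ± 0.12 on the log2 scale, and its chaperone partner CRYAA by 0.41 ± 0.14 (limma adjusted p = 0.00104 and 0.0256). For the delta-crystallins the log2 fold changes were -0.28 ± 0.12 for ASL1, which did not pass, and -0.39 ± 0.15 for ASL2 (adjusted p = 0.0632 and 0.0482). ASL1 lay near the threshold: it passed in 4 of 14 alternatives, among them the one without hypoxia pool 3 (-0.33, limma adjusted p = 0.0239), with adjusted p-values of 0.0178 to 0.604 over all of them. The galectin-related lens protein gene GRIFIN was at 6905, 5453 and 5737 normalized counts in the hypoxia pools, against 9386, 10759 and 10094 in the untreated pools, and fell by 0.75 ± 0.11 (adjusted p = 0.000174). The calls of CRYAA and ASL2 were not firm, holding in 9 and 8 of 14 alternatives. Library totals ended both (limma adjusted p = 0.282 and 0.393). CRYAA also lost its call without hypoxia pool 3 or without untreated pool 1, 2 or 3 (adjusted p = 0.0666, 0.066, 0.0977 and 0.0562). ASL2 lost its call with plain moderation (0.0904), without hypoxia pool 1 or 3 (0.0853 and 0.142) and without untreated pool 1 or 2 (0.0863 and 0.2). Of 16 within-library ratios of a member to CRYAA or CRYAB, 3 did not overlap between groups: CRYGS to either, and CRYBA4 to CRYAA (-5.89, -5.60 and -5.53 in the hypoxia pools, against -5.40, -5.34 and -5.08 in the untreated pools). The differences of these 3 ratios were -1.29 ± 0.17, -1.06 ± 0.14 and -0.40 ± 0.15 (SE). Here too no like count over ratios of other rows was made. For the other 6 members the hypoxia and untreated ratios to the alpha-crystallins overlapped. Their differences were largest for CRYBB2 and CRYBB3 over CRYAB (0.25 ± 0.12 and 0.20 ± 0.09, SE), and with 3 against 3 libraries an overlap does not show that the ratios were equal.

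Transcription factors that act on crystallin genes were mostly higher. Of 26 listed, 24 had a row, and 16 of these were higher, 0 lower and 8 did not pass by limma (also 0 lower at an unadjusted p under 0.05), with a median log2 fold change of 0.68. The list counts the coactivators EP300 and CREBBP, both called higher, with the factors. The shares over all rows were 29.4% higher and 25.7% lower. Scaled to equal totals, 18 of the 24 factors were higher, against 40.1% of all rows. MAFA, the L-Maf of chick lens that activates crystallin genes, had 5435, 5391 and 4576 normalized counts in the hypoxia pools, against 5699, 6021 and 5734 in the untreated pools. All its hypoxia values were lower, yet the difference did not pass (-0.18 ± 0.10, adjusted p = 0.123) and was 0.03 with library totals. Its relative MAF rose by 0.80 ± 0.10 on the log2 scale.

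PAX6, the master factor of eye development and in chick a repressor of the CRYBB1 promoter, had 4734, 4038 and 4035 normalized counts in the hypoxia pools, against 2838, 2517 and 2524 in the untreated pools, and rose by 0.70 ± 0.10. PROX1, in chick an activator of that promoter, rose by 0.65 ± 0.16, with hypoxia pools uneven at 5633, 9464 and 6981 against 4414, 4761 and 4548 in untreated pools. The SOX genes, partners of PAX6 on crystallin enhancers, rose as well, SOX3 by 1.91 ± 0.10, SOX1 by 1.25 ± 0.13 and SOX2 by 1.06 ± 0.12. The lens homeobox gene PITX3 was at 11824 ± 606 in hypoxia and 11168 ± 569 in untreated lenses and did not pass (0.08 ± 0.09, adjusted p = 0.466), but it was called higher with library totals (0.30, adjusted p = 0.0173). HSF4, a heat shock factor needed for gamma-crystallin expression in mouse lens, stood at 1168, 1956 and 2678 in the hypoxia pools, against 1887, 2159 and 2054 in the untreated pools. That hypoxia spread covers the untreated range, and no call was made (-0.15 ± 0.29, adjusted p = 0.685).

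Apart from the coactivator CREBBP, adjusted p-values of the named factors that rose ran from 5.67e-08 for SOX3 to 0.00756 for PROX1 (limma). CREBBP rose by 0.35 ± 0.11 (limma adjusted p = 0.0167). Its call ended without hypoxia pool 2 or untreated pool 3 (adjusted p = 0.0523 and 0.0803). The other listed factors that passed with a log2 fold change of at least 0.5 were all higher. Largest was the immediate early factor FOS (4.91 ± 0.30), followed by HSF2, a heat shock factor (1.64 ± 0.08), MEIS1 (0.88 ± 0.12), GATA3, which in mouse is needed for fiber cells to leave the cell cycle (0.84 ± 0.11), and JUN, the partner of FOS (0.81 ± 0.09). TFAP2A, typical of lens epithelium, rose by 0.75 ± 0.11 and the forebrain and lens homeobox gene SIX3 by 0.71 ± 0.10. ZEB1, a repressor of the delta-crystallin enhancer in chick, rose by 0.65 ± 0.10, and the acetyltransferase coactivator EP300 by 0.56 ± 0.12. Among 4 RNA-binding regulators of lens transcripts, 1 was higher (RBM24, 0.67 ± 0.10, limma adjusted p = 0.000151), 1 lower (CAPRIN2, -0.71 ± 0.14, adjusted p = 0.0013) and 2 did not pass. TDRD7, a granule protein whose loss causes cataract in mouse and human, had 25924, 21610 and 22710 normalized counts in the hypoxia pools, against 25086, 29230 and 28474 in the untreated pools (-0.24 ± 0.11, adjusted p = 0.0783), and passed without hypoxia pool 1 (-0.31, adjusted p = 0.0273). CELF1, the other that did not pass (0.31 ± 0.13, limma adjusted p = 0.0556), was called higher with library totals (0.53, adjusted p = 0.00688). It also passed with the replicate block (0.00655) and without hypoxia pool 1 or untreated pool 2 (0.0327 and 0.0318).

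Structural genes of the fiber cell lay close to the beta-crystallins. Of 5 fiber markers with a row, 4 were lower and HSF4 did not pass, while 25.7% of all rows were lower. The 4 average over 10000, a level at which 60.5% of rows were called lower with a median of -0.33. Beside those rows, which hold the 4 markers themselves, their count stands less far apart. No matching in level was made. The beaded filament subunits BFSP1 and BFSP2 fell by 0.62 ± 0.12 and 0.57 ± 0.12 on the log2 scale, the water channel MIP by 0.52 ± 0.14, and the gap junction gene GJA3 by 0.59 ± 0.14 (limma adjusted p = 0.0013 for BFSP1 to 0.00775 for MIP). For MIP and GJA3 the call ended with library totals (adjusted p = 0.0667 and 0.0532). MIP and both filament genes were highest of the hypoxia pools in pool 3 (181230 for MIP, 281401 for BFSP1 and 118939 for BFSP2).

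**Figure D4:**
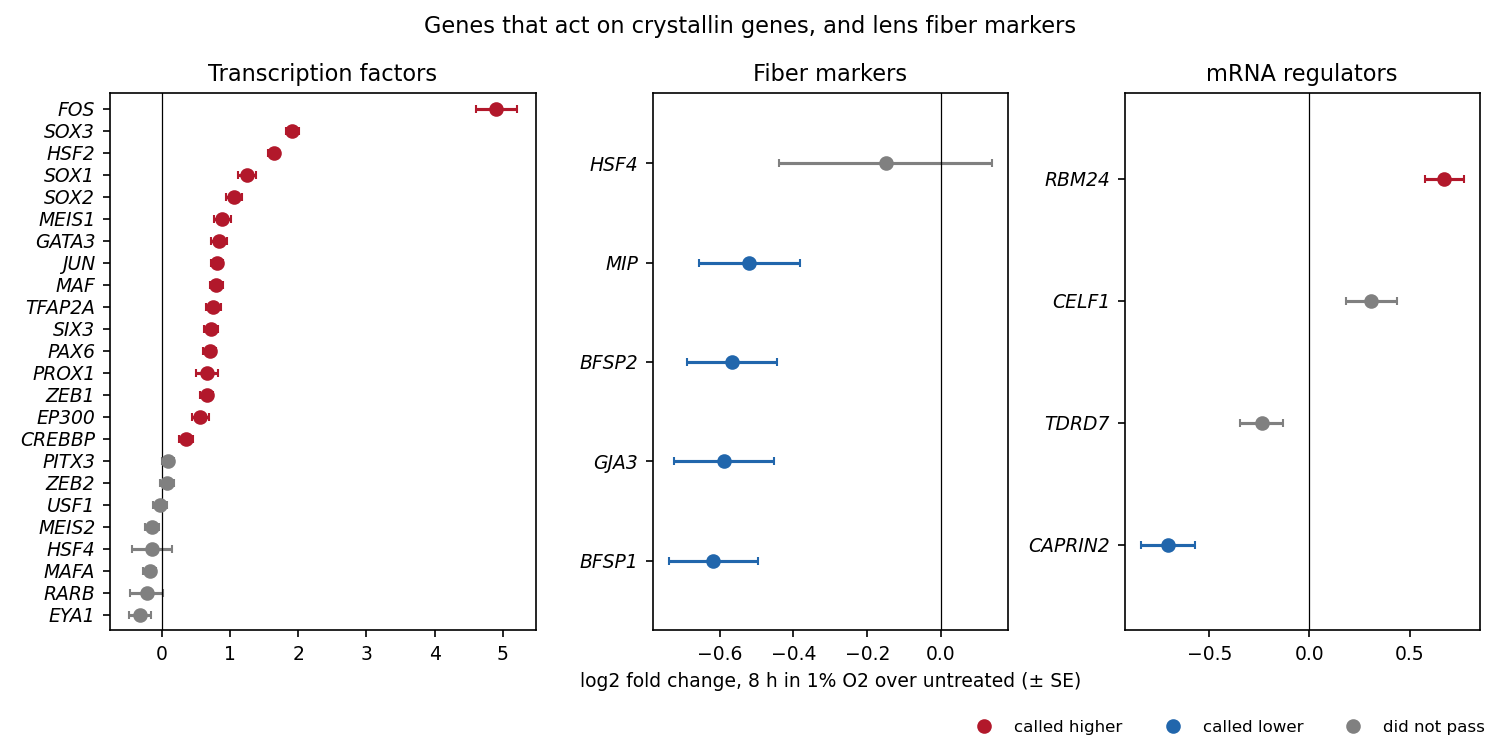
Log2 fold change of 8 h in 1% O2 over untreated (horizontal axes, each panel with its own range, ± SE) for transcription factors that act on crystallin genes, coactivators included (left), fiber cell markers (middle) and RNA-binding regulators (right); red points were called higher, blue lower and gray did not pass. Of the transcription factors 16 of 24 are red and 0 blue, and of the fiber markers 4 of 5 are blue.

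The rows most like the family in their profile over the 6 libraries were GATD3AL1 (Pearson r = 0.998), TMEM14A (0.996), SMARCA4 (0.995), EVI5L (0.994) and AAMDC (0.994), among 7684 rows outside the family with a mean of at least 100. GATD3AL1 had 2057, 1903 and 1613 normalized counts in the hypoxia pools, against 2958, 2886 and 3240 in the untreated pools, and so shared both the difference between groups and the low hypoxia pool 3. Since both groups enter the profile, a fall between the groups by itself raises r, and 871 of the 7684 rows had r above 0.9. The correlations are a description over 6 libraries.

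On the chromosomes, 4 of the 8 members sit in pairs of neighbours in the RefSeq annotation of GRCg7b. CRYBB2 and CRYBB3 are adjacent, and CRYBA4 lies within CRYBB1, as stated above. The log2 ratio of CRYBB2 to CRYBB3 overlapped between hypoxia and untreated pools (difference 0.06 ± 0.15), while the ratio of CRYBA4 to CRYBB1 did not overlap (difference -0.31 ± 0.06).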

How the data were processed

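The table deposited by the authors holds 9107 gene rows for 6 libraries. Its deposited values have the unit score: they are counts that were scaled by one factor per library, then rounded, as worked out from the values. Beside them stand a log2 fold change shrunken by the authors and their adjusted p-value, per the file headers. The submitters' processing notes name galGal6 as the build, and edgeR, DESeq2, StringTie, HISAT2, Bowtie2, STAR and cutadapt as tools with no roles; which program counted reads, on which annotation and whether by strand, is not given in the sources used. Size factors (0.7443 to 1.2676) were recovered from the pattern that rounding leaves. In untreated pools (factors under 1) 76 to 306 values cannot occur, and 0 rows held one. In hypoxia pools (factors over 1) some values arise from a pair of read counts, and these held 1.99 to 2.11 times as many rows as the others. Errors computed from recovered reads are counting errors alone.

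The fit used limma 3.58.1 (R 4.3.3) on log2(value + 1), modelling the group alone, with robust moderation and a mean-variance trend. It took 9105 rows, those averaging 1 or more, after 1 row with a value that was not whole was left out. Fold changes are on that scale. Adjusted p-values are Benjamini-Hochberg values over all rows, called under 0.05. The fit was also run on simulated data with an assumed spread and few changed rows. In these data 55.1% of rows were called, so that run does not vouch for the calls made here. The labels call the pools biological triplicates. All 8 members passed the filter, and all 8 symbols are in the RefSeq table. Members and lists were chosen with earlier results of these data known. Named were all crystallins, 8 factors whatever their value, other listed regulators that passed with an absolute log2 fold change of at least 0.5, the fiber markers, and the 5 rows most like the family. TDRD7, CELF1, CREBBP, MEIS2, USF1 and ZEB2 were named after their values were seen. So were the markers GJA1, PDGFRA, PECAM1, MITF and COL3A1. Some genes of the lists are not reported here. Alternatives were other scalings, pseudocount 0.5, other filters, plain moderation, a replicate block and each library left out. Columns of unknown samples numbered 0.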

Additional observations from a re-analysis of the deposited data

How the results depend on the processing

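Over 14 alternatives all 112 values of the members stayed below 0, 105 kept their side of the threshold, 5 lost the call and 2 gained it. Many of these values could not change sign. The other filters, plain moderation and the replicate block left the members' log2 fold changes as they were, and pseudocount 0.5 nearly so. The recomputed median-ratio scalings, with and without crystallins, moved the median of all rows by only -0.0115 and -0.0125. With library totals 4 members were lower in place of 7, the members' median was -0.28 in place of -0.50, and 976 of all rows were lower in place of 2336; these move with the median of all rows, which that scaling shifts by 0.216. Leaving out 1 library at a time gave 6 to 8 members lower, medians of -0.56 to -0.46, and 10 to 16 pairs of members whose ratios did not overlap in place of 10, the 16 without hypoxia pool 3; with fewer libraries, separation is easier. It also gave 15 or 16 transcription factors higher, against 18 with library totals (PITX3 and ZEB2 joining), where 40.1% of all rows were higher. No alternative gave a member called higher or a listed transcription factor called lower. With the replicate block 8 members were lower, CRYBB2 joining (-0.38, adjusted p = 0.00757). The labels do not say what a replicate number shares, so the block is not the main fit. Over all rows the deviations of same-numbered libraries correlated at 0.117, 0.108 and 0.013, and those of different-numbered ones at -0.16 to 0.059. These correlations do not settle whether the numbers pair the pools. Every member had a lower SE with the block (CRYBB2 0.10 in place of 0.16, CRYGS 0.104 in place of 0.105). Factors that did not pass changed sign: with library totals MAFA was at 0.032, HSF4 at 0.066, MEIS2 at 0.072 and USF1 at 0.19. With 1 library left out HSF4 ran from -0.43 to 0.17, ZEB2 from -0.028 to 0.14 and USF1 from -0.080 to 0.049. The causes were not tested. Scaling between libraries leaves the pair ratios as they are, and no blocked form of them was run.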

Other observations

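Genes named crystallin for enzymes that serve as lens proteins in some mammals are not relatives of the beta- and gamma-crystallins. A trio of them with a row was named after its values were seen. CRYL1, abundant in rabbit lens, had 725, 546 and 553 normalized counts in the hypoxia pools, against 359, 319 and 330 in the untreated pools, and rose by 0.84 ± 0.13 on the log2 scale (limma adjusted p = 0.000207). CRYM, a lens crystallin of marsupials, had 652, 746 and 791 normalized counts in the hypoxia pools, against 878, 982 and 1033 in the untreated pools, and fell by 0.40 ± 0.10 (adjusted p = 0.00708), but not when scaled by library totals (-0.19, adjusted p = 0.136). CRYZ, a lens crystallin of guinea pig, had 410, 406 and 463 normalized counts in the hypoxia pools, against 498, 495 and 504 in the untreated pools, and did not pass (-0.23 ± 0.10, adjusted p = 0.0704) except without hypoxia pool 3 (-0.29, adjusted p = 0.0476).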
